A study of Mus musculus with 7 samples.

Results

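The 10 receptor and feedback genes of the FGF and EGF pathways described here were followed across 7 mouse RNA-seq libraries. The set was given by name, and all 10 members were found among the 24354 gene symbols of the deposited table. They are 4 receptor genes (Egfr, Fgfr1, Fgfr2, Fgfr3), 4 genes for feedback inhibitors of the pathway (Spry1, Spry2, Spry4, Dusp6) and 2 genes for ETS transcription factors (Etv4, Etv5). The rule used gene names and no measured value, but the set was chosen with earlier results of these data known. All 10 passed the filter on low values in each test below.

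Each library was made from RNA pooled from 2 to 3 biological replicates, so a single library carries no replicate error. One library came from mouse embryonic fibroblasts (MEF) and one from control neural stem cells (cNSC) of the embryonic cerebral cortex. All 7 libraries carry the age label embryonic day 13.5, which for the iNSC lines is read as that of the starting fibroblasts. Induced neural stem cells (iNSC) gave the other 5 libraries. They are fibroblasts infected with lentiviral or retroviral reprogramming factors and kept in neural stem cell medium. By label these were pOKSM, pBKSM, clones 1 and 3 of mcBKSM, and a DTA line. The prefixes p and mc are read as the polycistronic vectors (several factors on 1 transcript) and monocistronic vectors (1 factor each) that the growth protocol names. The labels do not spell out the factor letters. The MEF, pOKSM, pBKSM and mcBKSM libraries shared 1 genotype, Oct4-CreER with Rosa26-loxSTOPlox-EYFP, on the strain given as C57BL/6-Pou5f1 x 129X1/SvJ. In this genotype a Cre recombinase driven by Oct4 switches on a fluorescent protein. The DTA line carried Oct4-CreER with Rosa26-loxSTOPlox-DTA, in which the same recombinase switches on a diphtheria toxin gene, and its strain is given as unknown. The cNSC library carried the OG2/ROSA26 genotype from heterozygous females, so cNSC differed from MEF, pOKSM, pBKSM and mcBKSM in its strain and genotype labels as well as in cell type. Whether lines other than the mcBKSM clones are single clones, and which growth factors each medium held, is not stated in the labels.

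FGF and EGF family ligands bind receptor tyrosine kinases at the cell surface and, through RAS, RAF and MEK, switch on the kinase ERK. ERK activity induces genes of the ETS factors Etv4 and Etv5 and of inhibitors that act back on the pathway: Sprouty proteins restrain signalling below the receptors, and the phosphatase DUSP6 removes the activating phosphates from ERK. Transcripts of these genes are therefore commonly read as a report of pathway output, and FGF2 and EGF are the growth factors that neural stem cells are usually cultured with.

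Markers of the 2 reference cell types were set beside their labels. Summed over 8 fibroblast marker genes, MEF had 1408 FPKM (fragments scaled to transcript length and library size) and cNSC 0.348. The iNSC libraries had between 0.753 and 26.5, most of it Col3a1 where the sum was above 10. Nes, encoding the neural progenitor filament nestin, was 0.103 FPKM in MEF, 225 in cNSC and between 132 and 275 in the iNSC libraries. Of 8 neural stem cell markers, 7 were higher in every iNSC library than in MEF, as were 31.8% of all genes tested. Vim was the exception, at 2239 FPKM in MEF, 4206 in cNSC, 1669 in pBKSM and 1901 in DTA, while pOKSM and both clones lay above MEF. Low values of genes with 1 annotated transcript lay near whole multiples of 1 fragment, and this step gave approximate depths from 11500000 fragments in pBKSM to 16800000 in DTA. At these depths the lowest value of a member was Fgfr3 in MEF, about 11 fragments. The next lowest, Spry4 in MEF, rested on about 121 fragments.

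Promoter sequences are shown for Spry2 and Dusp6, because these were the 2 members whose levels moved most alike over the 7 libraries. No window of Fgfr1, Spry4 or Etv4 was searched. For the other 7 members, 9 RefSeq promoter windows of 300 bases (build GRCm38.p6) were used. They were searched on both strands for the octamer bound by Capicua, a repressor that ERK signalling inactivates, in its 4 spellings TGAATGAA, TGAATGGA, TCAATGAA and TCAATGGA. The Spry2 window, chr14:105896770-105897069 on the minus strand, held 1 match and the Dusp6 window, chr10:99262981-99263280 on the plus strand, held 2. Both windows are written 5′ to 3′ in the direction of the gene, with the matched octamers in capitals.
Spry2 promoter: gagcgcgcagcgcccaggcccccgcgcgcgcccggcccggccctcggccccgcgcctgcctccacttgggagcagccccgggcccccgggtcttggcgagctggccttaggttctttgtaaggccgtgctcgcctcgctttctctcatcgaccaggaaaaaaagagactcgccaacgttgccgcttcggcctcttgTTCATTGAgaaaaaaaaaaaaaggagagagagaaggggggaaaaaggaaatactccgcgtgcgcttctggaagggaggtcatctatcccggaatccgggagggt
Dusp6 promoter: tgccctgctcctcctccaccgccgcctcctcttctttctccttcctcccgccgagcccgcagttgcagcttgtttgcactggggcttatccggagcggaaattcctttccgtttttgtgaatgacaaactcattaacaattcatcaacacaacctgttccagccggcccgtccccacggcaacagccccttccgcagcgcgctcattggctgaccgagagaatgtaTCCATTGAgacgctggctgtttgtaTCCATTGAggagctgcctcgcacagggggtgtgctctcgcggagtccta
The Spry2 match began at position -54 relative to the start site, and the Dusp6 matches began at -24 and 1. Windows of Egfr, Fgfr2, Fgfr3, Spry1 and Etv5 held none of these letters. Of 32851 promoter windows of the same length, 3.84% held at least 1 match and 0.183% held 2 or more. The AP-1 site TGANTCA (7.81% of all windows) was in none of the 9 windows. The ETS spelling GGAAGT (23.8% of all windows) was in 1 of them, the second Etv5 window, 2 times. Other or shorter ETS spellings were not searched. A match describes letters only, and binding was not measured.

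Egfr (chromosome 11, 16752203 to 16918158, mm10), encoding the EGF receptor, was 12.3 FPKM in MEF, 21.2 and 24.2 in mcBKSM clones 1 and 3, 37.2 in pOKSM, 51.5 in pBKSM, 53.3 in DTA and 55.3 in cNSC. The pBKSM, DTA and cNSC values lay closer together than the 2 clones did to each other, whose ratio of 1.14 is the only spread within a label group. MEF lay below every other library.

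Fgfr1 (chromosome 8, 25513654 to 25575718), the FGF receptor gene of mesenchymal cells and of neural progenitors, had the narrowest range of the set among iNSC libraries. It was 113 FPKM in MEF, 60.6 and 68.1 in the clones, 69.2 in pOKSM, 68.4 in pBKSM, 73.6 in DTA and 51.1 in cNSC. The highest iNSC value was 1.216 times the lowest. All 5 lines lay between cNSC and MEF.

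Fgfr3 (chromosome 5, 33721674 to 33737068), a receptor gene of ventricular zone progenitors and astrocytes, ranged most widely. It was 0.161 FPKM in MEF, 8.77 in mcBKSM clone 3, 9.31 in pOKSM, 12.3 in clone 1, 24.4 in pBKSM, 31.1 in DTA and 57.8 in cNSC. The MEF value has an exact Poisson interval of 0.0833 to 0.299 FPKM at 95%, which covers counting error only. This interval lay above the floor of 3 fragments, 0.0455 FPKM. Whether the fragments came from Fgfr3 is uncertain, since its exons share 998 bases with a gene on the opposite strand. Every iNSC line stayed below cNSC, and the order of pBKSM, DTA and cNSC above pOKSM and both clones was the same as for Egfr.

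Fgfr2 (chromosome 7), encoding a receptor with epithelial and glial roles, was the lowest receptor gene of the set in 2 of 5 iNSC libraries, pBKSM and DTA, and ran in another order. It was 15.4 and 10.8 FPKM in clones 1 and 3, 9.86 in pOKSM, 4.90 in DTA, 4.36 in cNSC, 4.16 in MEF and 3.44 in pBKSM. The clones differed from each other by 1.42-fold, more than for any other member. The gap between pOKSM and DTA, 2.01-fold, was the only one between neighbours in this order that was wider. Fgfr4 stayed at or below 0.174 FPKM in every library.

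Per length, the receptor mix shifted more than its total. The 4 FGF receptor genes summed to 118 FPKM in MEF, 113 in cNSC and 94.1 ± 9.35 in the iNSC lines (SD, n = 5). Fgfr1 made up 96.3% of this sum in MEF, 45.1% in cNSC and between 67.2% and 78.2% in the lines. Fgfr3 made up 0.137% in MEF, 51.02% in cNSC, 28.3% in DTA, 25.4% in pBKSM and between 9.98% and 14.0% in pOKSM and the clones. Fgfr2 made up 17.4% and 12.3% in the clones and 11.1% in pOKSM, against 3.53% to 4.47% in the other 4 libraries. In cNSC, Fgfr3 was 1.13 times Fgfr1, whereas in each iNSC line Fgfr1 was higher than Fgfr3, by 2.37-fold in DTA to 7.76-fold in clone 3. These shares compare genes within a library and do not depend on scaling between libraries.

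**Figure D1:**
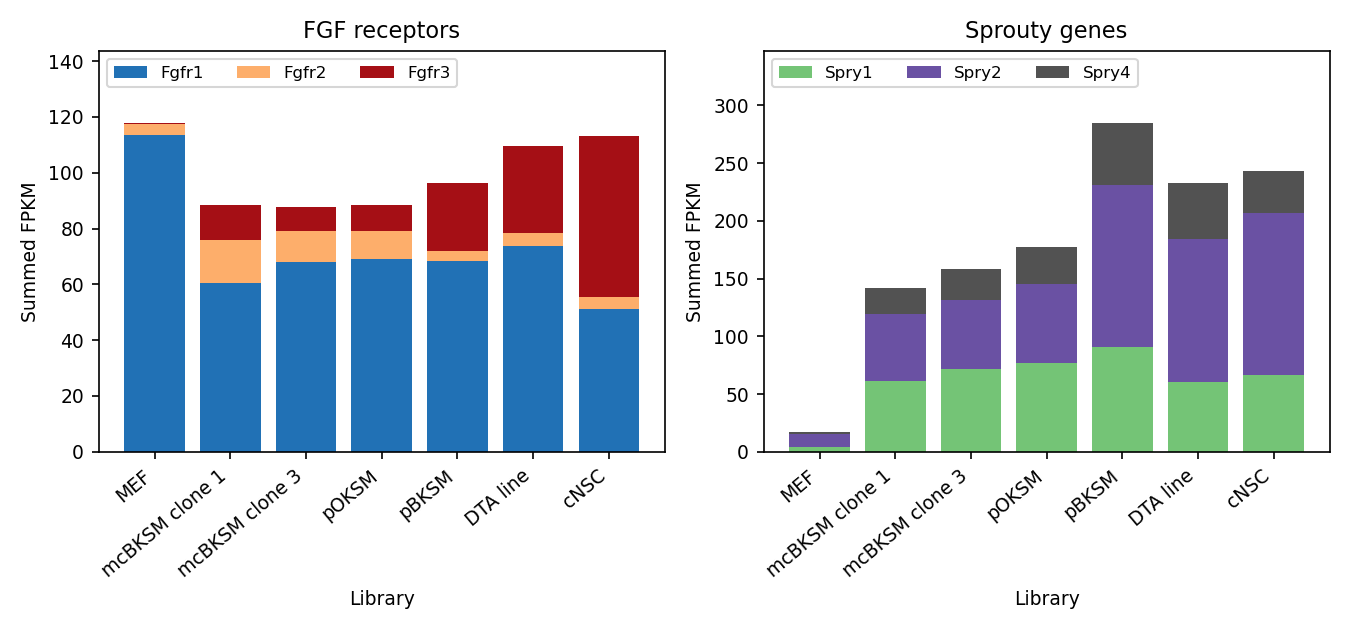
Summed FPKM of 3 FGF receptor genes (left) and 3 Sprouty genes (right) in each of the 7 libraries, as stacked bars without error, since each bar is 1 library. Fgfr4, at or below 0.174, is not drawn but is counted in the receptor sum of the shares. Fgfr3 makes up 51.02% of the receptor sum in cNSC, 28.3% in DTA and 0.137% in MEF, and the Sprouty sum is 17.2 in MEF against 142 to 285 in the iNSC lines.

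Sprouty genes encode membrane-associated inhibitors that are induced by the signalling they restrain. Spry1 (chromosome 3, 37639947 to 37644598) was 3.97 FPKM in MEF, 60.6 in DTA, 61.5 and 71.4 in clones 1 and 3, 66.4 in cNSC, 77.1 in pOKSM and 90.8 in pBKSM. Apart from MEF these values spanned 1.499-fold, and from pOKSM down to DTA no neighbours differed by more than the clones did.

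Spry2 (chromosome 14, 105891947 to 105896819) was 11.6 FPKM in MEF, 57.9 and 60.3 in the clones, 68.6 in pOKSM, 124 in DTA, 140.1 in cNSC and 140.2 in pBKSM. The libraries fell into 3 levels: MEF, then the clones and pOKSM, then DTA, cNSC and pBKSM, with a gap of 1.80-fold between the upper levels. Within these levels, pOKSM over clone 3 (1.14-fold) and cNSC over DTA (1.13-fold) also exceeded the clones' ratio of 1.04. Spry4 (chromosome 18, 38586247 to 38601415) was 1.63 FPKM in MEF, 22.5 and 26.7 in the clones, 31.5 in pOKSM, 36.5 in cNSC, 49.0 in DTA and 53.7 in pBKSM. For Spry4, cNSC lay between pOKSM and DTA rather than with pBKSM. Spry3, the fourth Sprouty gene, was listed at 0 in all 7 libraries.

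The Sprouty sum was 17.2 FPKM in MEF, 243 in cNSC and 199 ± 59.0 in the lines (SD, n = 5), from 142 in clone 1 to 285 in pBKSM. Spry2 was the largest part in MEF (67.4%), cNSC (57.6%), DTA (53.0%) and pBKSM (49.3%). In pOKSM and the clones Spry1 was the largest part (43.3% to 45.1%).

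Dusp6 (chromosome 10, 99263231 to 99267489) was 11.4 FPKM in MEF, 48.5 and 55.3 in clones 1 and 3, 60.3 in pOKSM, 116 in DTA, 123 in pBKSM and 129 in cNSC. As for Spry2, 3 levels were seen, and the gap between pOKSM and DTA was 1.93-fold against a ratio of 1.14 between the clones. No other gap above MEF exceeded the clones' ratio.

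The 2 ETS factor genes differed from each other. Etv5 (chromosome 16, 22381309 to 22439719) was 10.2 FPKM in MEF, 104 and 113 in clones 1 and 3, 117 in cNSC, 154 in pOKSM, 210 in DTA and 247 in pBKSM. The clones sat beside cNSC, and 3 lines lay above it. Etv4 (chromosome 11, 101769742 to 101785371) was 45.0 FPKM in MEF, 27.2 in cNSC, 27.5 and 28.1 in the clones, 32.3 in pOKSM, 41.3 in pBKSM and 52.3 in DTA. MEF was thus the second highest library for Etv4 and the lowest for Etv5. The ratio of Etv5 to Etv4 was 0.227 in MEF, 4.31 in cNSC and 4.52 ± 0.901 in the lines (SD, n = 5).

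**Figure D2:**
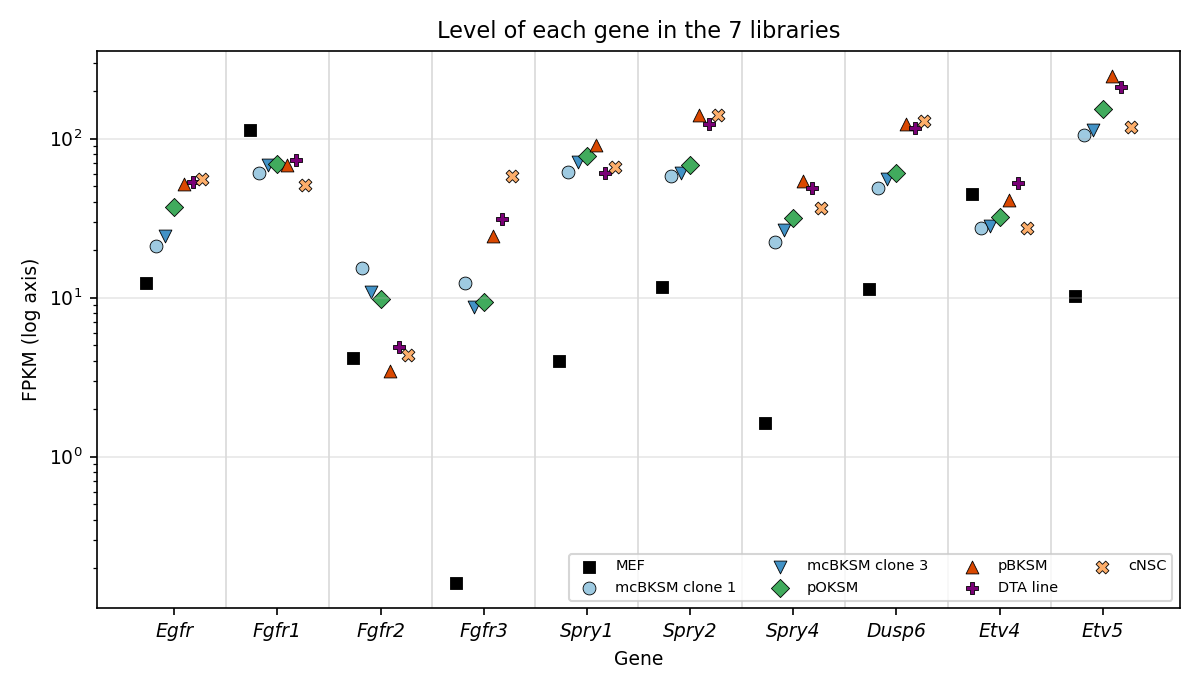
FPKM on a log axis for the 10 genes, with 1 point for each of the 7 libraries and no error bars, since each point is 1 library of pooled RNA. The MEF point lies below all others for 7 genes, above all others for Fgfr1 and second highest for Etv4, while for Spry2 and Dusp6 the pBKSM, DTA and cNSC points sit together above pOKSM and both mcBKSM clones.

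Against MEF, iNSC lines had more transcript of all 3 Sprouty genes, Dusp6, Etv5 and Fgfr3, and less of Fgfr1. Of the 10 members 6 rose and 1 fell, by limma on log2(FPKM + 1) with Benjamini-Hochberg adjustment over 13042 genes. Over all genes tested, 16.3% were called, 6.77% higher and 9.55% lower. The spread came from the 5 lines, and the lone MEF library was assumed to vary like them. The median difference of the members was 2.69, beside 0.03 for all genes tested.

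Spry1 rose by 3.87 ± 0.25 on the log2(FPKM + 1) scale (SE, adjusted p = 0.000428), from 3.97 FPKM to 72.3 ± 12.5 (SD, n = 5). Etv5 rose by 3.81 ± 0.51 (adjusted p = 0.00697), from 10.2 FPKM to 166 ± 61.7. Spry4 rose by 3.76 ± 0.51 (adjusted p = 0.00714), from 1.63 FPKM to 36.7 ± 13.9. All 5 lines lay above MEF for these 3 genes, and their calls held under every alternative run. Fgfr3 rose by 3.80 ± 0.74 (adjusted p = 0.0237), from 0.161 FPKM to 17.2 ± 10.02, and its call ended without mcBKSM clone 1 (adjusted p = 0.0539). At 0.161 FPKM in MEF, Fgfr3 passed the filter on low values only through the other libraries and could hardly be called lower. Spry2 rose by 2.75 ± 0.56 (adjusted p = 0.0277), from 11.6 FPKM to 90.1 ± 38.8, and Dusp6 by 2.62 ± 0.59 (adjusted p = 0.0370), from 11.4 FPKM to 80.8 ± 36.0. Without pOKSM neither passed (adjusted p = 0.0656 and 0.0805), and without clone 3 Dusp6 did not pass (0.0641), while the differences stayed between 2.69 and 2.83.

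Fgfr1 fell by 0.73 ± 0.14 on the same scale (adjusted p = 0.0244), from 113 FPKM to 68.0 ± 4.71, with all 5 lines below MEF. Its call ended with quantile normalization (adjusted p = 0.0627), without pOKSM (0.0786) and without clone 3 (0.0693). Egfr, at 37.5 ± 14.9 FPKM in the lines against 12.3 in MEF, did not pass (difference 1.44, 95% interval 0.05 to 2.84, adjusted p = 0.144), although every line lay above MEF. All lines lay above MEF for 31.8% of all genes tested and below it for 31.7%. Fgfr2 (8.89 ± 4.81 FPKM against 4.16, adjusted p = 0.5002) and Etv4 (36.3 ± 10.5 against 45.0, adjusted p = 0.555) did not pass either, and MEF lay within the range of the lines for both. The MEF and iNSC libraries differ in cell type, and any difference of medium cannot be told apart from it. In bulk RNA, fewer cells that express a gene and less transcript per cell cannot be told apart. Without pOKSM, 4 of the 10 members were called in all, and 8.81% of all genes.

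The 2 reference libraries were set side by side as ratios. In cNSC, Fgfr3 was 358 times, Spry4 22.4 times, Spry1 16.7 times, Spry2 12.1 times, Etv5 11.5 times, Dusp6 11.4 times and Egfr 4.51 times the MEF level. Fgfr2 was 1.05 times, Etv4 0.605 times and Fgfr1 0.450 times it. On the log2(FPKM + 1) scale 7 members were 2-fold or more higher and 1 was 2-fold or more lower in cNSC, beside 16.3% and 15.5% of all genes. Each side is 1 library, so no test was run, and these ratios share MEF with the comparison above.

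**Figure D3:**
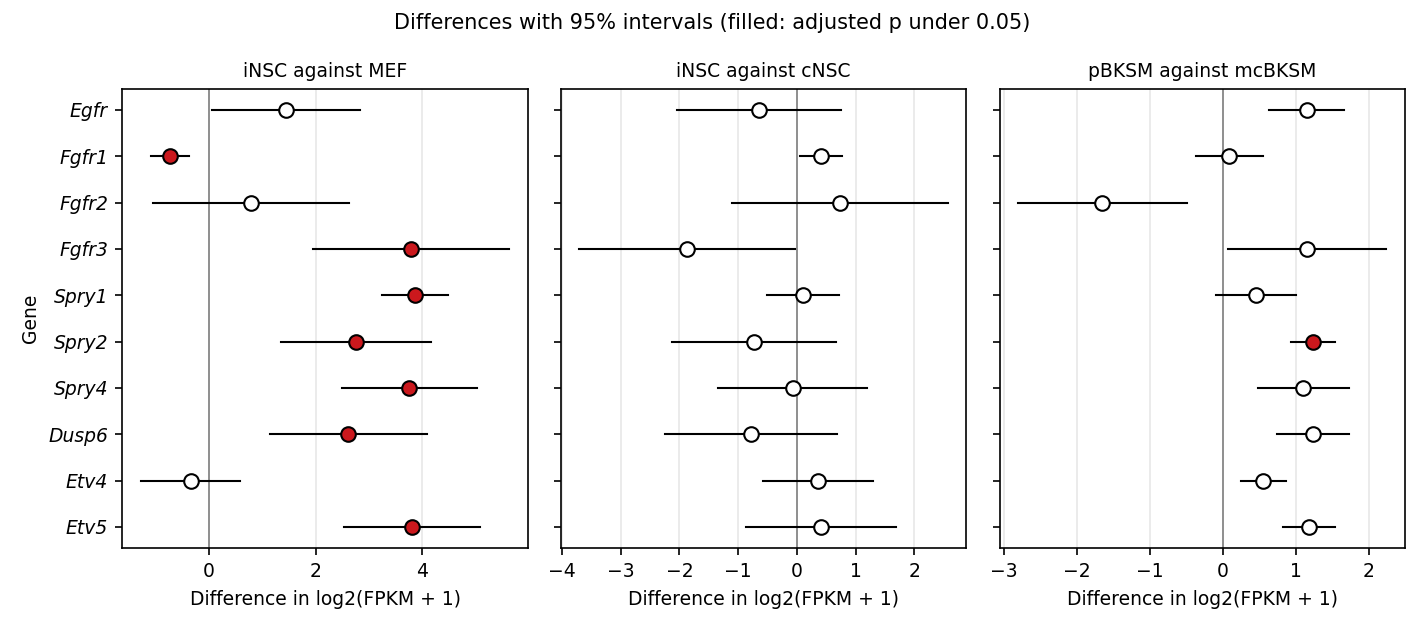
Difference in log2(FPKM + 1) for each gene in 3 comparisons, with 95% intervals from limma as bars and filled points where the adjusted p is under 0.05. Against MEF 6 points lie above 0 and 1 below it as calls, against cNSC no point is filled, and of pBKSM against mcBKSM Spry2 alone is filled.

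Against cNSC, none of the 10 members was called in the iNSC lines, where limma called 1.17% of all genes tested, 0.207% higher and 0.958% lower (smallest adjusted p of a member 0.332, Fgfr1). At an unadjusted p under 0.05 there were 2, Fgfr1 and Fgfr3, beside 13.6% of all genes tested. The intervals leave room for sizeable differences, since lines differed among themselves. Fgfr3 was 17.2 ± 10.02 FPKM against 57.8 in cNSC, a difference of -1.86 (95% interval -3.70 to -0.03, adjusted p = 0.363), with all 5 lines below cNSC. All lines also lay below cNSC for Egfr and Dusp6, as they did for 23.6% of all genes tested. Fgfr1 and Etv4 lay above cNSC in all 5 lines, as 22.2% of all genes did, with a difference for Fgfr1 of 0.40 (95% interval 0.04 to 0.76). For Spry1 the difference was 0.10 (-0.51 to 0.72), for Spry4 -0.07 (-1.34 to 1.19), for Spry2 -0.73 (-2.14 to 0.67) and for Dusp6 -0.78 (-2.25 to 0.68). For Egfr it was -0.64 (-2.04 to 0.75), for Etv5 0.41 (-0.86 to 1.69), for Etv4 0.36 (-0.57 to 1.29) and for Fgfr2 0.73 (-1.11 to 2.57). A strain effect cannot be told apart from these differences.

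Single lines stood at different distances from cNSC. In DTA, Egfr, Spry1, Spry2, Dusp6 and Fgfr2 were each between 0.882 and 1.12 times the cNSC level, while Etv5 was 1.79 times, Etv4 1.92 times and Fgfr3 0.538 times it. In pBKSM, Spry2 was 1.001 times, Dusp6 0.954 times and Egfr 0.932 times the cNSC level, while Etv5 was 2.11 times and Fgfr3 0.423 times it. These are ratios of 1 library to 1 library and have no test.

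The pBKSM line and the mcBKSM clones share their factor letters and differ in the vector prefix, while the factors present in each were not checked here. In pBKSM, 9 of the 10 members lay above both clones and Fgfr2 lay below both. Over all genes tested, 42.9% lay above both clones and 42.9% below both. Spry2 alone was called: it rose by 1.23 ± 0.08 (SE, adjusted p = 0.0471), from 57.9 and 60.3 FPKM in the clones to 140.2 in pBKSM. Over all genes tested, limma called 5.82%, 3.74% higher and 2.08% lower. The median difference of the members was 1.13, beside 0 for all genes tested.

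Dusp6 had a difference of the same size (1.24 ± 0.13, adjusted p = 0.0638), as had Etv5 (1.18 ± 0.09, 0.0527), Egfr (1.15 ± 0.13, 0.0680), Fgfr3 (1.15 ± 0.28, 0.125) and Spry4 (1.10 ± 0.16, 0.0795), without passing. Etv4 (0.55 ± 0.08, 0.0785), Spry1 (0.45 ± 0.14, 0.167) and Fgfr1 (0.09 ± 0.12, 0.632) had smaller differences, and Fgfr2 had the opposite sign (-1.65 ± 0.30, 0.0948). The SEs rest on 1 residual degree of freedom, from the 2 clones. The count of called members moved with the fit: 4 with a filter of 5 FPKM (13.5% of all genes called), 6 in a fit of the 3 BKSM libraries alone (21.1%), and 0 without a filter (4.40%), with quantile normalization (4.97%) or without limma's trend. Without the trend 0 of 13042 genes were called, so every call in this comparison, those of the pathway lists included, rests on it. Markers of other cell types also differed between pBKSM and the clones. The sum over 5 astrocyte marker genes was 663 FPKM in pBKSM against 138 and 132 in the clones, 196 in pOKSM, 889 in DTA and 882 in cNSC. Of these 5 genes, all were higher in pBKSM than in both clones, and S100b and Gfap were listed at 0 in clone 3. Similar sums held different parts: Gfap was 374 FPKM in cNSC, 24.5 in DTA and 1.70 in pBKSM. The fibroblast sum was 0.753 FPKM in pBKSM and 12.3 and 26.5 in the clones. Of 6 neuron markers 5 lay below both clones and 3 were called lower in pBKSM, among them Rbfox3, at 1.62 FPKM against 29.7 and 26.0. Map2 went the other way, at 259 FPKM against 113 and 160. The neuron sum, most of it Map2, was 276 FPKM in pBKSM against 203 and 258 in the clones. Of 8 neural stem cell markers 1 was called higher (Olig2) and 2 lower, Sox2 at 87.6 FPKM against 342 and 390 and Sox1 at 2.31 against 27.1 and 27.7. The part of these markers in the members' differences was not tested.

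Both polycistronic lines together against both clones gave 0 called members by limma (smallest adjusted p = 0.524), where 0.0165% of 12091 genes were called. Egfr and Etv5 had an unadjusted p under 0.05, as had 8.39% of all genes. In 8 of the 10 members both polycistronic lines lay above both clones, as 26.9% of all genes tested did. Fgfr2 lay below both clones, as 25.2% did, and Fgfr3 overlapped. Egfr levels of 37.2 (pOKSM) and 51.5 FPKM (pBKSM) stood against 21.2 and 24.2 in the clones (difference 0.92, 95% interval 0.34 to 1.497), and Etv5 was 154 and 247 against 104 and 113 (0.84, 0.18 to 1.505). The 2 polycistronic lines were far apart. Without pOKSM 6 members were called (Egfr, Spry2, Spry4, Etv5, Dusp6 and Fgfr2), in a fit that called 21.1% of all genes, and without pBKSM none was.

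Between the polycistronic lines, which by label differ in B or O, pBKSM had 2.62 times the Fgfr3, 2.05 times the Spry2, 2.04 times the Dusp6, 1.70 times the Spry4 and 1.60 times the Etv5 of pOKSM. The pOKSM line had 2.87 times the Fgfr2. Fgfr1 was 0.987 times and Spry1 1.18 times the pOKSM level. On the log2(FPKM + 1) scale 3 members were 2-fold or more higher in pBKSM and 1 was 2-fold or more lower, beside 6.32% and 6.44% of all genes. These are values of 1 library against 1, with no test.

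The DTA line against the other 4 iNSC lines gave 0 called members by limma (smallest adjusted p = 0.235, Etv4), where 0.355% of 12378 genes were called (0.202% higher, 0.153% lower), and Etv4 was the only member with an unadjusted p under 0.05, beside 20.5% of all genes. Egfr, Fgfr1, Fgfr3 and Etv4 were higher in DTA than in each of the other 4 lines, and Spry1 was lower. Over all genes tested, 29.2% lay above and 29.6% below the other lines. Of the 5 astrocyte markers 1 was called higher in DTA, Aqp4, at 12.7 FPKM against at most 0.560 in the other lines. In this fit Aqp4 passed the filter on low values only through DTA and could hardly be called lower. The 6 neuron markers all had differences below 0 and 3 lay below every other line, among them Syt1, at 0.511 FPKM against 9.55 to 46.4, though none was called. The part of these markers in the result was not tested. Fgfr3 was 31.1 FPKM against 13.7 on average (difference 1.24, 95% interval -0.25 to 2.72). Etv4 was 52.3 FPKM against 32.3 (0.70, 0.02 to 1.37). Without pBKSM, the line nearest to DTA in Spry2, Dusp6, Spry4 and Fgfr3, 6 members were called, in a fit that called 32.3% of all genes. Fgfr3, Spry2, Spry4, Etv4 and Dusp6 were then higher and Fgfr2 lower in DTA.

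Members were compared by the shape of their profiles, as the root mean square difference of centred log2(FPKM + 1) values over 7 libraries. Spry2 and Dusp6 were the most alike of all pairs (0.07), and both had the 3 levels described above. Spry4 and Etv5 came next (0.18), with pBKSM and DTA above cNSC in both. Fgfr1 and Etv4 followed (0.28), the 2 members that were low in cNSC and high in MEF. Over the 5 iNSC lines alone, the distance was 0.06 for Spry2 and Dusp6 and 0.08 for Spry4 and Etv5. These are descriptions over libraries that share MEF as an extreme, and no test was run.

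**Figure D4:**
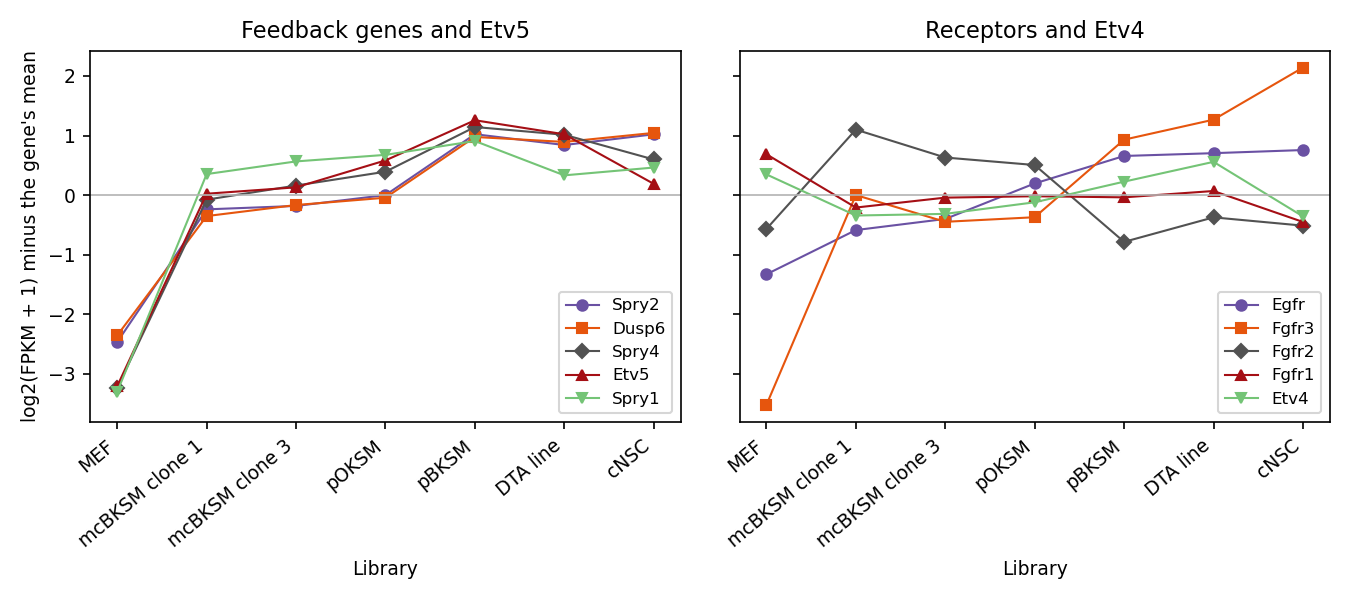
Profiles of log2(FPKM + 1) centred on each gene's mean, for 5 feedback and ETS genes (left) and 5 receptor and ETS genes (right). Each point is 1 library and the lines only join points of 1 gene. The Spry2 and Dusp6 lines run within 0.07 of each other (root mean square), while Fgfr2 is highest in the mcBKSM clones and Fgfr3 in cNSC.

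Among 10240 other genes that reached 5 FPKM, those with the nearest profiles were named for each member. Nova2, encoding a neuronal splicing regulator, was nearest to both Dusp6 (0.11) and Spry2 (0.16). It was listed at 0 in MEF, was 2.25 and 2.80 FPKM in the clones and 3.81 in pOKSM, and lay between 8.35 and 8.64 in DTA, cNSC and pBKSM. The second for Spry2 was Sema6a (0.16), a transmembrane semaphorin gene, and for Dusp6 Jakmip2 (0.18). Prkcb, encoding a protein kinase C, was nearest to both Etv5 (0.09) and Spry4 (0.17), followed by Dock10 (0.09) for Etv5 and Gareml (0.18) for Spry4. Nearest to Spry1 were Tmtc2 (0.18) and Ralgps2 (0.18). Egfr was nearest to Arl4a (0.16) and Epb4.1l5 (0.18), and Fgfr3 to Adgrb2 (0.26), an adhesion receptor gene, and Reep1 (0.32). Fgfr1 ran with Ccna2 (0.06), the cyclin A2 gene, and Oser1 (0.07). Etv4 ran with Pkdcc (0.07) and Tmem164 (0.10), and Fgfr2 with Ppp1r10 (0.16) and Fbxo32 (0.18).

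Among ligand genes of the pathway, many stayed under 1 FPKM in every library, and some differed widely between lines. Of 22 genes named Fgf, 8 were tested. In the iNSC lines Fgf7, a mesenchymal ligand gene, fell by 4.81 on the log2(FPKM + 1) scale (adjusted p = 0.000441), from 33.7 FPKM in MEF to 0.259 on average. Fgf7 passed the filter on low values only through MEF and could hardly be called higher in the lines. Fgf12 was called higher, at 1.43 FPKM on average against a listed 0 in MEF, but it passed the filter on low values only through the iNSC lines. It encodes an FGF-homologous factor that stays in the cell and acts on sodium channels rather than as a secreted ligand. In pBKSM Fgf1 was higher than in the clones, at 19.4 FPKM against 0.251 and 0.0987 (adjusted p = 0.0374), a call that ended without limma's trend. Fgf1 passed the filter on low values only through libraries other than the clones. Fgf13, another intracellular FGF-homologous factor gene, was 3.18 FPKM in pBKSM and listed at 0 in both clones, so its call rests on no spread of its own. Fgf1 was also 22.9 FPKM in DTA, 9.18 in cNSC and 6.01 in pOKSM. Fgf2, named after its values were seen, was 4.67 FPKM in cNSC, 1.45 in DTA and 1.40 in MEF, at most 0.423 in the clones, and listed at 0 in pOKSM and pBKSM.

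Of 11 EGF family ligand genes 7 were tested against MEF, and 0 rose and 2 fell, beside 6.77% and 9.55% of all genes. Ereg (epiregulin) went from 18.8 FPKM in MEF to 0.00294 on average in the lines (adjusted p = 2.8e-05) and Nrg1 (neuregulin 1) from 15.3 to 0.454 (adjusted p = 0.00198). Ereg passed the filter on low values only through MEF and could hardly be called higher in the lines. It was listed at 0 in every line but DTA (0.0147 FPKM), so its p rests on a spread at the floor. In pBKSM against the clones 3 of 7 were called higher and 0 lower, beside 5.82% of all genes, and none without limma's trend. Areg (amphiregulin) was 9.82 FPKM against 0.131 and 0.215 (adjusted p = 0.0367), Tgfa 1.61 against 0.215 and 0.164 (0.0455), and Nrg2 1.52 against 0 and 0.0277 (0.0374). In the clones, 3 fragments on a transcript of 2 kb are 0.102 and 0.113 FPKM, so these calls rest on a spread near the floor. These 3 genes passed the filter on low values only through libraries other than the clones and could hardly be called lower. Against cNSC, the polycistronic and the DTA comparisons, 0 ligand genes of either list were called. Hbegf, an EGF family ligand gene named after its values were seen, was called in no comparison. It was 70.2 FPKM in cNSC, 33.3 in MEF, 25.1 in DTA and between 4.52 and 5.99 in pOKSM, pBKSM and the clones.

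The pathway core links the receptors to ERK. Of 21 genes from adaptors to ERK (among them Grb2, Sos1, Braf and Map2k1), 0 rose and 1 fell against MEF: Shc1, an adaptor gene, from 53.3 FPKM to 16.3 on average (adjusted p = 0.0164). Of all genes tested, 6.77% were called higher and 9.55% lower. In the other 4 comparisons 0 were called. At an unadjusted p under 0.05 against MEF there were 7 of the 21, beside 32.3% of all genes. In every line 7 lay above and 7 below MEF, beside 31.8% and 31.7% of all genes. The median difference of these genes was -0.03, beside 0.03 for all genes tested.

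Beyond the 4 largest differences of a list, called genes are named after their values were seen. Of 16 other negative regulators tested, 3 rose and 2 fell against MEF, beside 6.77% and 9.55% of all genes. Spred1, a Sprouty-related inhibitor gene, rose by 1.31 (adjusted p = 0.0143) from 23.3 FPKM to 59.8 on average, Cblb, a ubiquitin ligase gene, by 1.11 (0.0280), and Spred3 by 0.80 (0.0456). Errfi1, encoding an inhibitor of the EGF receptor, fell by 3.33 (adjusted p = 0.0416) from 49.5 FPKM to 4.86, and Dusp5, a nuclear ERK phosphatase gene, by 2.15 (0.0255) from 15.4 to 2.81. In pBKSM against the clones 1 was higher: Lrig1, a negative regulator of EGF family receptors, at 63.8 FPKM against 24.0 and 24.3 (adjusted p = 0.0433), a share near that of all genes and a call that ended without limma's trend. In the other comparisons 0 were called.

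Of 12 other ERK-responsive genes, 3 rose and 4 fell against MEF, beside 6.77% and 9.55% of all genes. Genes with this label thus did not move one way. Fos rose by 4.46 (adjusted p = 0.0472) from 1.11 FPKM to 59.3 on average, Fosb by 2.85 (0.0327) and Etv1, the third gene of the Etv4 and Etv5 subfamily, by 2.14 (0.0150) from 9.36 to 46.0. Fosb, at 0.526 FPKM in MEF, passed the filter on low values only through the lines and could hardly be called lower. Fosl1 fell by 6.71 (adjusted p = 8.3e-05) from 130 FPKM to 0.260, Ier3 by 2.54 (0.0499), Junb by 2.12 (0.0362) and Phlda1 by 0.87 (0.0322). Fosl1 was the only one called against cNSC, lower in the lines (6.64 FPKM in cNSC, adjusted p = 0.0141). In the lines Fosl1 was at most 0.529 FPKM. It passed the filter on low values only through MEF and cNSC and could hardly be called higher in the lines. Egr3, an immediate early gene, was higher in pBKSM than in the clones, at 10.3 FPKM against 0.163 and 0.438 (adjusted p = 0.0468). Egr3 passed the filter on low values only through libraries other than the clones, and its call ended without limma's trend. Etv1 kept another order than Etv5: it was 54.1 FPKM in pOKSM, 50.6 and 54.4 in the clones, 41.6 in pBKSM, 29.2 in DTA and 25.1 in cNSC. In the polycistronic and the DTA comparisons 0 of these genes were called.

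Some values carry a limit of annotation. In GENCODE M21, exons of Fgfr3 share 998 bases, of Spry1 710 bases and of Fgfr1 164 bases with genes on the opposite strand, and exons of Fgfr2 share 314 bases with Ctbp2 through a long joint transcript. Whether strand was used in counting is not given in the sources used here, so reads from these stretches cannot be assigned with certainty.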

How the data were processed

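RNA was sequenced from 7 libraries, each of RNA pooled from 2 to 3 biological replicates, per the labels' protocols. The deposited values are FPKM per gene symbol. Build mm10 and the tools R 3.3.2, Cuffnorm, Cufflinks 2.2.1 and STAR 2.5.2b are named, without roles or settings, per the submitters' processing notes. All 7 columns matched a sample title. FPKM is scaled for length and library size, which hides any change in RNA content per cell.

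Values were used as log2(FPKM + 1), which understates changes of low genes. A gene entered a fit when some library in it reached 1 FPKM. A gene near 0 on 1 side of a comparison entered through other libraries, so it could hardly be called higher on that side. Tests used limma 3.58.1 (trend, R 4.3.3) and Benjamini-Hochberg adjustment, with calls at an adjusted p under 0.05. The class fit (iNSC, MEF, cNSC) had 4 residual degrees of freedom, the fit of 6 label groups 1, the polycistronic fit 2 and the DTA fit 3. Where a side held 1 library, its spread was taken from the other side, and p-values measure spread between lines or clones. The fits were also run on simulated data in which all libraries of a gene had the same spread. That run could not check whether a lone library varies like the others. Depth was estimated from steps between low values: 76.7% to 81.8% of values under 6 fragments lay within 0.1 of a whole fragment, where 20% of evenly spread values would.

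The members, lists and comparisons were chosen with earlier results of these data known. Named genes are the members, in each list up to 4 called genes with the largest differences (up to 2 in comparisons other than iNSC against MEF and pBKSM against mcBKSM), and the 2 genes of nearest profile, leaving out predicted, microRNA, snoRNA and ribosomal protein genes. Alternatives were a pseudocount of 0.1, no filter, a filter of 5 FPKM, quantile normalization, limma without the trend, a fit of 3 libraries and leaving out each library. Gene positions are from GENCODE M21 (GRCm38, the mm10 assembly).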

Additional observations from a re-analysis of the deposited data

How the results depend on the processing

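Of 460 recomputed differences of single members, 426 kept their direction and their side of the threshold, 10 were no longer called, 20 became called and 4 changed sign. The fit of the 3 BKSM libraries and the polycistronic fit without pOKSM are the same fit, so 10 of these values and 5 gained calls are counted in both comparisons. The sign changes were Spry4 against cNSC without mcBKSM clone 1 (0.079) or without clone 3 (0.020), with a range of -0.23 to 0.079 over left-out lines, Fgfr1 in pBKSM against mcBKSM with quantile normalization (-0.047), and Fgfr3 in the polycistronic lines against mcBKSM without pBKSM (-0.15), with a range of -0.15 to 1.15. None of these was called in any form.

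Against MEF, leaving out 1 line gave 4 to 7 called members of 10 and 1147 (without pOKSM) to 3193 (without DTA) called genes, against 7 and 2128 with all lines. Against cNSC it gave 50 (without pOKSM) to 883 (without DTA) called genes, against 152, with 0 members called throughout. The count was 74 with a pseudocount of 0.1, 618 without a filter and 74 with a filter of 5 FPKM.

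For pBKSM against mcBKSM (759 genes and 1 member), a filter of 5 FPKM gave 1454 genes and 4 members, the fit of the 3 BKSM libraries 2536 and 6, and limma without the trend 0 and 0. No filter and quantile normalization each gave 0 members. For the polycistronic lines against mcBKSM (2 genes, 0 members), a pseudocount of 0.1, no filter and a filter of 5 FPKM each gave 0 genes. Leaving out 1 library gave 0 (either clone) to 2536 genes (without pOKSM) and 0 to 6 members. For DTA against the other lines (44 genes, 0 members), the count was 17 with a pseudocount of 0.1, 583 without a filter, 16 with a filter of 5 FPKM and 98 without the trend. Leaving out 1 library gave 0 (without clone 1) to 3951 genes (without pBKSM) and 0 to 6 members. The cause of these changes was not tested. Quantile normalization moved the median of all genes by at most 0.04 (log2). Leaving out a clone in pBKSM against mcBKSM leaves no residual degree of freedom, so only differences were recomputed, with no test. No paired analysis was possible because only mcBKSM has more than 1 library, so no groups share 2 replicate numbers.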

Other observations

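Coreceptor genes, which bind ligands through heparan sulfate chains, were not part of the comparisons above. Of 12 receptors and coreceptors outside the 10 genes that were tested against MEF, 1 rose and 0 fell by limma. The gene called was Gpc2, a neural glypican gene (adjusted p = 0.000698 by limma). It was listed at 0 in MEF, 7.66 FPKM in cNSC and between 12.4 and 20.6 in the iNSC lines. Gpc2 passed the filter on low values only through libraries other than MEF, so a call lower in the lines was not possible. In pBKSM against the mcBKSM clones 1 of 12 was called higher and 0 lower, beside 3.74% and 2.08% of all genes. This was Sdc4, a syndecan gene, at 29.0 FPKM against 11.9 in each clone (adjusted p = 0.0471 by limma). The call ended without limma's trend, and Sdc4 was 197 FPKM in cNSC and 81.2 in MEF. The syndecan gene Sdc3, which was not called and was named after its values were seen, reached 172 FPKM in pBKSM and 83.6 in DTA, with 50.2 in pOKSM and 66.5 in cNSC, against 18.7 and 11.9 in the clones. Fgfrl1, which encodes an FGF receptor without a kinase domain and was also named after its values were seen, was 133 FPKM in DTA against 28.9 to 54.5 in the other 4 lines. In the comparisons with cNSC, of the polycistronic lines and of DTA, 0 genes of this list were called.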
